A study of Mus musculus with 2 samples.

Results

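The genes described here are 10 components of the Notch pathway: the receptors Notch1, Notch2 and Notch3, the ligands Jag1, Jag2 and Dll1, the glycosyltransferase Lfng and the targets Hes1, Hey1 and Heyl. They were chosen by name as known pathway components, with earlier results of these data known. Every array probe that carries one of these gene names was taken, which gave 15 probes for 10 of the 37074 gene names on the array. The cells were mDE6, a mouse line labelled as odontogenic epithelial cells, and they stand for 1 cell line in culture. The control was given DMSO, the solvent, and the treated culture CHIR99021, both for 6 h. CHIR99021 inhibits the kinase GSK-3, which lets β-catenin accumulate and act on genes with TCF/LEF factors. The sample label gives a dose of 5 mM with DMSO as the control, whereas the study's methods give a micromolar dose and an untreated control. Total RNA of each culture was labelled with the dye Cy3 and read on 1 Agilent mouse array per condition.

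Notch receptors sit in the cell membrane and are bound by Delta or Jagged ligands on a neighbouring cell. Binding lets proteases cut the receptor, and its freed intracellular part enters the nucleus, joins the DNA-binding protein RBPJ and a Mastermind protein, and switches on targets such as the Hes and Hey repressors. In the tooth germ, Notch receptors and ligands are known from the layers of the dental epithelium next to the ameloblasts, the cells that make enamel, and from dental mesenchyme.

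Of the 10 genes, only Notch1 gave a higher signal with CHIR99021 by at least 1.5-fold, Jag1 and Lfng gave a lower one with a ratio of at most 0.66, and Notch2 and Notch3 differed little. Hey1 was measured in control cells only, so its direction was set by the filter on dim signals. Jag2, Dll1, Hes1 and Heyl were not well above background on either array. None of the 10 genes met both the ratio and the Z-score criterion described below, and with 1 array per condition no difference has a replicate check or a p-value.

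The probes behind the 4 genes past a ratio limit are given first, because for Lfng the 2 probes read separate stretches of the gene and gave different ratios. Each probe has 60 bases, and its first 30 bases are printed 5′ to 3′ as the array design gives them. The positions are those of the design in build mm9, for the whole probe, and the files do not say whether a probe lies in a coding exon or an untranslated region. The Notch1 probe A_55_P2171897 is at chr2:26319440-26319499 on the minus strand, and the Jag1 probe A_52_P634090 is at chr2:136907433-136907492 on the minus strand. The Lfng probes are A_52_P187940 at chr5:141091224-141091283 and A_51_P201226 at chr5:141090156-141090215, both on the plus strand. The Hey1 probe A_51_P258409 is at chr3:8663432-8663491 on the minus strand.
Notch1, A_55_P2171897: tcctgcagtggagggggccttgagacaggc
Jag1, A_52_P634090: ggagtattctcataagctagttgaatactt
Lfng, A_52_P187940: tttggaaagctggacaatgagtgccttagt
Lfng, A_51_P201226: ctatggcatgtttgagaacaagcggaacgc
Hey1, A_51_P258409: gatttgggctctaaaagtattgttttacag

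RefSeq promoter windows of build GRCm38.p6 were found for 7 of the 10 genes, and those of Notch1, Jag1 and Lfng are shown because these genes had signals on both arrays that passed a ratio limit. Each window is the 250 bases before the start site, on the strand of the gene, 5′ to 3′, with the last base next to the start site. Capitals mark matches, on either strand, to the RBPJ motif TGGGAA, the E-box CACGTG (bound by Hey repressors and by many other factors) or the TCF/LEF motifs CTTTGAA or CTTTGAT or CTTTGTA or CTTTGTT. The Notch1 window is chr2:26503823-26504072, the Jag1 window is chr2:137116521-137116770, both on the minus strand, and the Lfng window is chr5:140607091-140607340 on the plus strand.
Notch1: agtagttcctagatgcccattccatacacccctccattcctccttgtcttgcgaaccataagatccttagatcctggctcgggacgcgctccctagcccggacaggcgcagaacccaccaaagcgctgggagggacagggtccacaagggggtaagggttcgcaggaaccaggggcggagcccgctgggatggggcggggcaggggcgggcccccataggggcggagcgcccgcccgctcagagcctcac
Jag1: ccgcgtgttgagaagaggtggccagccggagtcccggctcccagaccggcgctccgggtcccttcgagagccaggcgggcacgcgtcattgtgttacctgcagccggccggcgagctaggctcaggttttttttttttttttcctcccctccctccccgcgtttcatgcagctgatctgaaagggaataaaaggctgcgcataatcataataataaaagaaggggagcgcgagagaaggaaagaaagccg
Lfng: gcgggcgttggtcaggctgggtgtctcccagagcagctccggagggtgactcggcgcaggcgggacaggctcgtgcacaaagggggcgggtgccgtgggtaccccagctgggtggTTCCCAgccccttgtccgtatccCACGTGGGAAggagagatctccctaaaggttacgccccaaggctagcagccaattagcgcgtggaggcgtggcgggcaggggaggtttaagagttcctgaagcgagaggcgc
Among the 7 genes, only the Lfng window held any match. It held the RBPJ motif from -108 to -103 on the strand of the gene and from -135 to -130 on the other strand, counted from the start site, and an E-box from -112 to -107 that overlaps the first of these. Over all 32851 windows of the same length, 21.6% held the RBPJ motif, 6.02% the E-box and 14.8% a TCF/LEF motif. A match is a string of letters and not a measured site, and its absence says only that these letters were not in this window.

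The measure of each gene was the processed signal of a probe, which is spot brightness after background subtraction. For ratios it was divided by the 75th percentile of all signals of the same array, and these divisors were 486.7 in the control and 469.2 in the treated sample. A probe counted as measured on an array where the scanner software marked it well above background, and the lowest such signals were 23.7 for the control and 26.3 for CHIR99021. Signals of different probes are not on 1 scale, so no gene was set against another by its level. The error given with a signal is the estimate of the scanner software for that spot. It covers neither the spread between cultures nor that between arrays, and for bright spots it is close to a fixed share of the signal.

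Notch1, a receptor with a role in many epithelia, gave a processed signal of 238.8 ± 24.4 in the control and 369.6 ± 37.4 with CHIR99021 at probe A_55_P2171897. The treated signal was the higher, and the intervals of 1 error did not overlap. The log2 ratio was 0.68 with a scanner error of 0.21, which is a ratio of 1.61. With normexp background correction the ratio was 1.4975, just under the limit of 1.5. The second Notch1 probe, A_55_P2722000, read 5.61 and 6.25 and did not clear the background of either array, so the Notch1 result rests on 1 probe and 1 spot.

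Notch2 and Notch3, the other receptors of the list, were nearly equal in the arrays. Notch2 read 2331 ± 233 in control and 2252 ± 225 in treated cells at A_52_P289213, with a log2 ratio of 0.00 ± 0.20. Its sign depended on the scaling, with ratios from 0.964 to 1.02. The second Notch2 probe, A_55_P2736859, read 5.28 and 5.77, not well above background. Notch3 read 2686 ± 269 in control and 2480 ± 248 in treated cells at A_55_P2856510, its only probe, with a log2 ratio of -0.06 ± 0.20. For both receptors the signal intervals overlapped. Notch2 and Notch3 lay between the ratio limits under every scaling, and no test of a difference between the receptors was possible.

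**Figure D1:**
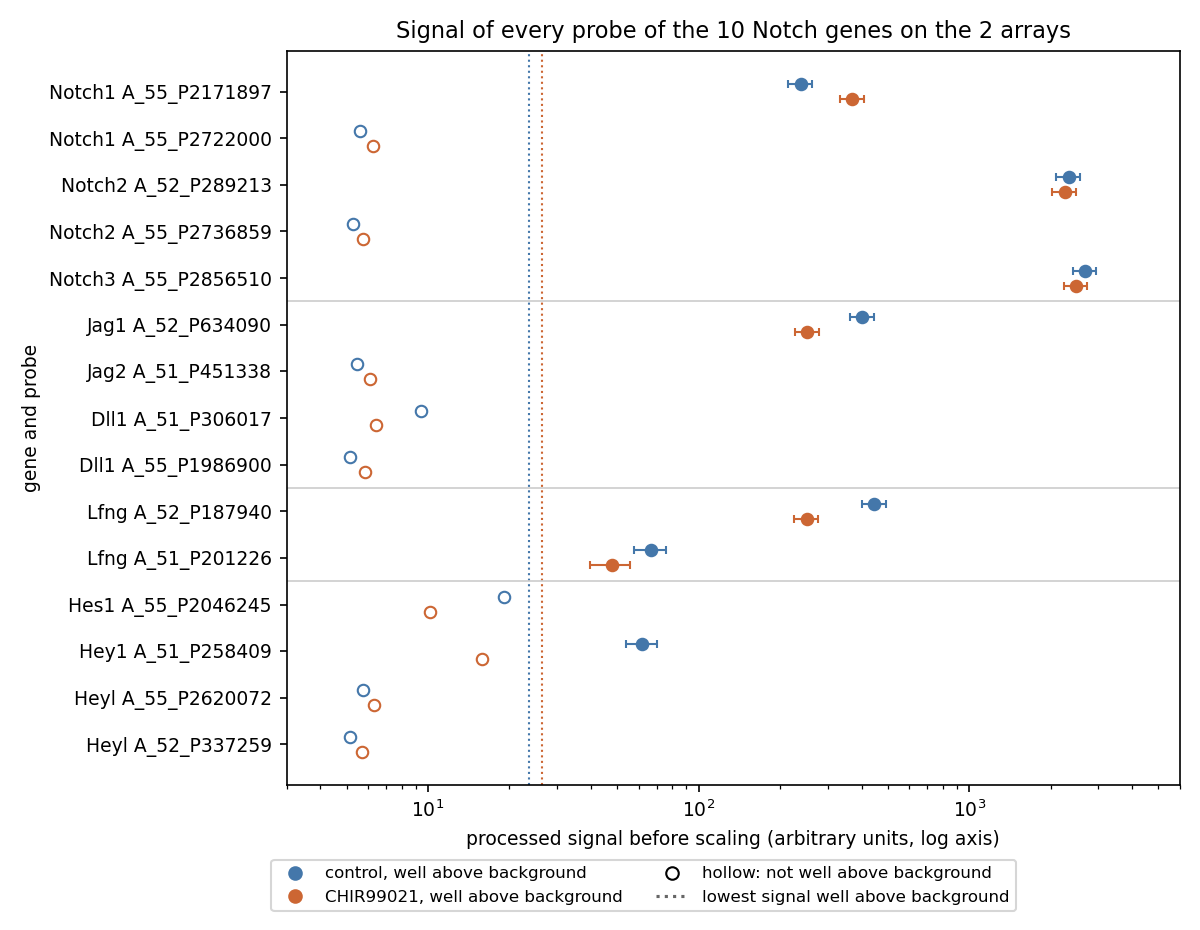
Processed signal (arbitrary units, log axis, before scaling) of all 15 probes of the 10 Notch genes on the control array and the CHIR99021 array, grouped by receptors, ligands, glycosyltransferase and targets. Filled points are well above background with bars for the scanner error, hollow points are not, and dotted lines mark the lowest signal well above background on each array. Notch1 is the only measured gene whose treated signal lies to the right of its control signal without overlap of the bars, and the probes of Jag2, Dll1, Hes1 and Heyl lie left of both dotted lines.

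Jag1, a Jagged ligand, read 402.7 ± 40.7 in control and 252.3 ± 26.0 in treated cells at A_52_P634090. The treated signal was the lower, without overlap of the errors. The log2 ratio was -0.62 ± 0.21, a ratio of 0.650, which lies just inside the limit of 0.66. Under median scaling the ratio was 0.664, just outside it, and with normexp background correction it was 0.706. The other ligands were not measured. The Jag2 probe read 5.49 and 6.09, and the Dll1 probes read 9.41 and 6.42 at A_51_P306017 and 5.17 and 5.85 at A_55_P1986900. All of these lie below the lowest signals marked well above background, so no fold is given for Jag2 or Dll1.

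Lfng adds a sugar to the fucose on Notch receptors and so changes how they respond to Delta and Jagged ligands. Its brighter probe, A_52_P187940, read 446.6 ± 45.0 in control and 251.2 ± 25.9 in treated cells. The log2 ratio was -0.78 ± 0.21, a ratio of 0.583. The dimmer probe, A_51_P201226, read 66.7 ± 8.80 and 47.8 ± 8.01, with a log2 ratio of -0.43 ± 0.31 and a ratio of 0.743. Both probes were lower in treated cells, but only the brighter passed the limit, and the interval of 1 error of the dimmer overlapped that of the brighter. The dimmer probe was between the limits under every scaling, with ratios from 0.716 to 0.759, and was 0.895 with normexp.

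Of the targets, Hes1, a repressor that Notch switches on in many cell types, read 19.1 ± 6.10 in control and 10.2 ± 6.51 in treated cells at A_55_P2046245 (chr16:30067820-30067879, mm9). Neither signal was well above background, so no fold is given, and these arrays do not show whether Hes1 changed. Hey1, a related repressor, read 61.9 ± 8.02 in control cells, where it was well above background, and 15.9 ± 5.99 in treated cells, where it was not. Against the lowest signal well above background on the treated array, Hey1 was at least 2.27-fold lower with CHIR99021. With normexp correction, which adds an offset to every signal, its ratio was 0.635, a smaller change than that bound. Hey1 entered the comparison only through its control signal, so it had to be lower there. The Heyl probes read 5.74 and 6.33 at A_55_P2620072 and 5.13 and 5.69 at A_52_P337259, not well above background on either array.

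Counted by gene, 5 of the 10 were measured on both arrays, Hey1 on the control array alone and 4 on neither. By the ratio alone, 1 of the 5 genes measured on both arrays was higher (Notch1) and 2 were lower (Jag1 and Lfng). Over all 16886 genes measured on both arrays, 5.06% reached a ratio of 1.5 and 5.76% a ratio of 0.66 or less. Among the 18837 genes measured on at least 1 array these shares were 8.05% and 9.67%, against 1 higher and 3 lower of the 6 Notch genes measured there, and 1 of the 3 was Hey1, which had to be lower. The median log2 ratio of the 5 genes was -0.06, and that of all 16886 genes was 0.03, with 5th and 95th percentiles of -0.65 and 0.59. Notch1 and Lfng lay outside that range and Jag1 inside it. With 5 genes, nothing is read from these counts about the list.

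The Z-score set each log2 ratio against those of the 500 probes nearest in mean signal, and a call needed a Z-score of at least 2.0 with a ratio of at least 1.5, or at most -2.0 with a ratio of at most 0.66. Notch1 came closest, at 1.83. The Z-scores were -1.75 for the brighter Lfng probe, -1.58 for Jag1 and -1.16 for Hey1, and lay between -0.43 and -0.18 for Notch2, Notch3 and the dimmer Lfng probe. Over all 18837 genes, 2.63% met both criteria on the higher side and 3.22% on the lower side, against 0 of the 6 Notch genes on either side. With a Z-score from the median and the median absolute deviation of the neighbours, Notch1 met the higher rule and Lfng the lower one. These calls thus depend on how the centre and the spread of the neighbours are taken. Hey1 met the lower rule too, but with a treated signal below background and a direction set by the filter. Over all genes this rule called 4.73% higher and 5.36% lower, more than the first rule.

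**Figure D2:**
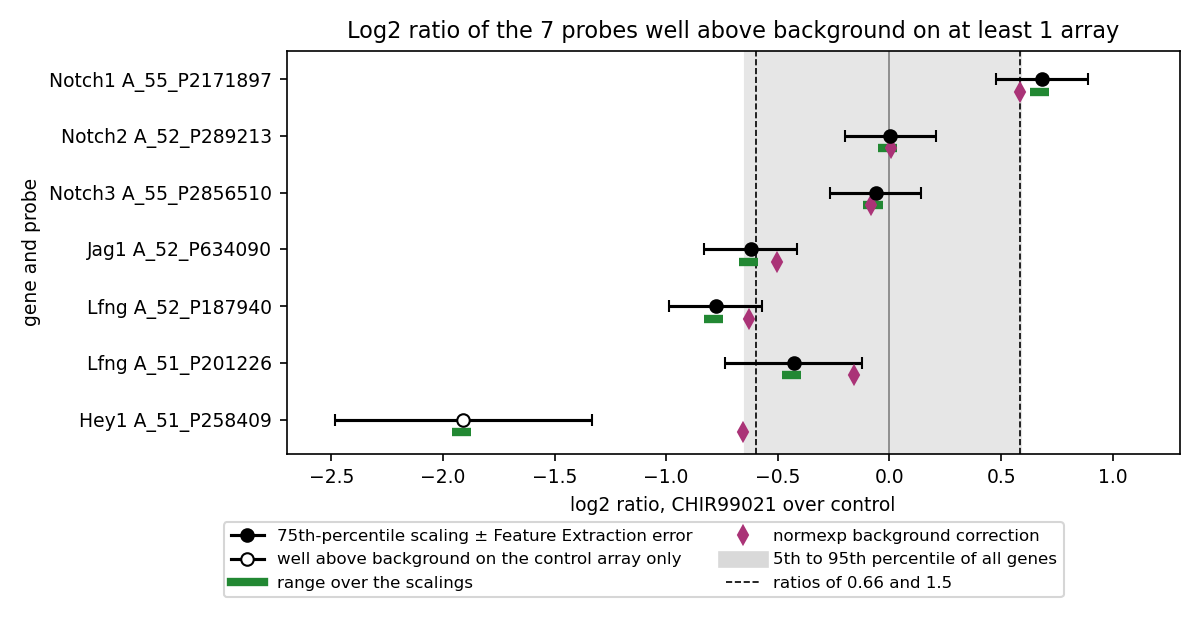
Log2 ratio of CHIR99021 over control for the 7 probes of the Notch genes that were well above background on at least 1 array. Points are 75th-percentile scaling with the scanner error, green bars the range over 6 scalings and diamonds the normexp correction. The grey band is the 5th to 95th percentile of all genes measured on both arrays, and dashed lines mark ratios of 0.66 and 1.5. Notch1 sits right of the band, the brighter Lfng probe left of it, Jag1 at its left edge, and the normexp value of Hey1 (-0.66) is far from its main value.

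Whether a spot's place on the array moved with these ratios was also examined, because the 2 arrays sit side by side on 1 slide and position and condition cannot be told apart. Of 1182 probes that were measured on 1 array only and differed over 4-fold, 93.1% lay in the later 192 of the 384 rows, where 52.1% of all measured probes lie. Hey1 (row 300), Jag1 (row 268), Notch3 (row 321) and the Lfng probes (rows 331 and 360) lay in the later rows, and Notch1 (row 30) and Notch2 (row 122) in the earlier ones. Within 3 rows and columns of the Hey1 spot, 3 of 28 measured spots were lost over 4-fold on the treated array, against 0 of 20 around Jag1, 0 of 26 around Notch1, 0 of 32 around Notch3, 1 of 19 around the brighter Lfng probe and 1 of 25 around the dimmer. Of all tested probes, 608 of 28066 were lost in this way, and of those in the later rows 563 of 14625. Around Notch2, 0 of 19 measured spots were lost. Around Notch3 and the brighter Lfng probe 1 spot each was gained over 4-fold, and 0 around the other measured probes. The median log2 ratio of the neighbours was 0.10 around Hey1, -0.02 around Jag1, 0.09 around Notch1 and 0.06 around the brighter Lfng probe. It was 0.02 around Notch2, 0.12 around Notch3 and -0.01 around the dimmer Lfng probe. Among genes measured on both arrays, 5.37% in the earlier and 6.16% in the later rows had a ratio of at most 0.66, and 4.15% and 5.97% a ratio of at least 1.5. The part of spot position in the lower Hey1 signal was not tested.

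**Figure D3:**
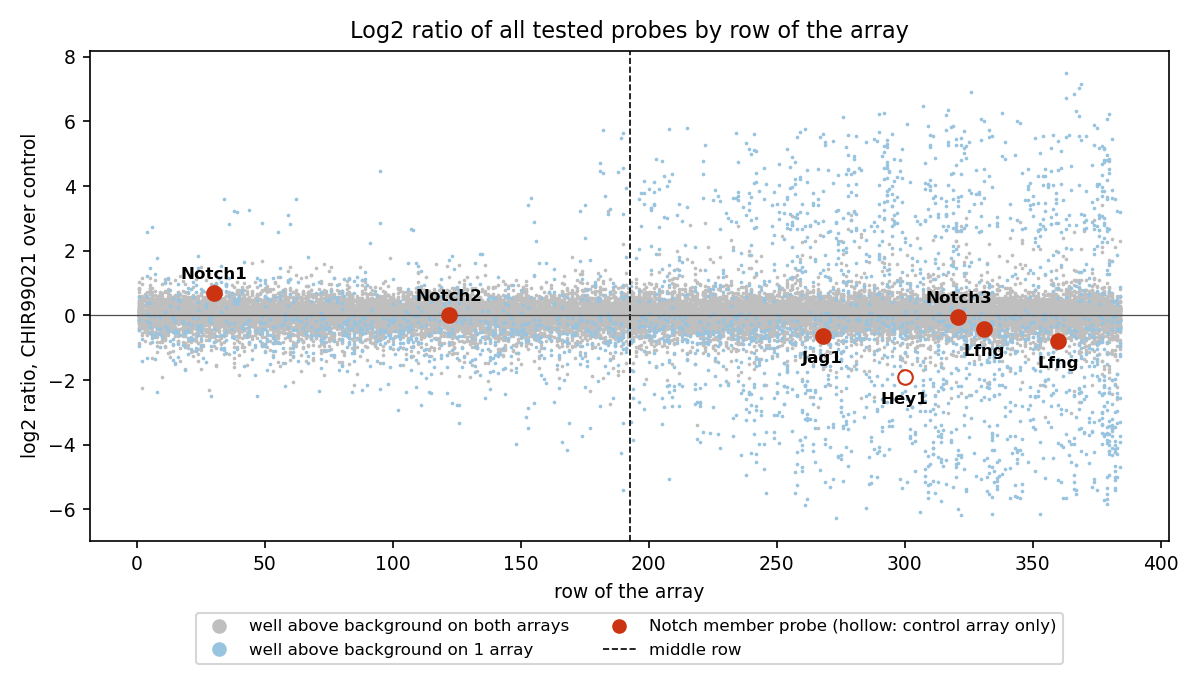
Log2 ratio of CHIR99021 over control of all 28066 tested probes by row of the array, with the 7 measured probes of the Notch genes in red. Grey points were well above background on both arrays and blue points on 1, and the dashed line is the middle row. Large ratios of blue points lie mostly in the later rows, where Hey1 lies too, while Notch1 and Notch2 lie in the earlier rows.

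The rest of the pathway was described through 62 further genes listed by role, of which 54 were measured on at least 1 array and 52 on both. Of the 52, 1 reached a ratio of 1.5 and 6 a ratio of 0.66 or less, against 5.06% and 5.76% of all genes measured on both arrays, and 45 lay between. Their median log2 ratio was -0.07. Only Cir1 of the 54 met both criteria, on the lower side, and 0 did on the higher side, against 3.22% and 2.63% of all genes.

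Among the proteases that process and cut Notch, all 10 were measured on both arrays, with a median log2 ratio of -0.06. Of these, 1 had a ratio of at most 0.66 and 0 reached 1.5, against 5.76% and 5.06% of all genes, and 9 lay between. The exception was Psen2, a catalytic subunit of γ-secretase, which read 349.2 in control and 177.9 in treated cells, with its log2 ratio at -0.92 ± 0.21 and its Z-score at -1.95.

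In the nuclear complex, which turns the cut receptor into transcription, 3 of 9 genes had a ratio of at most 0.66 and 0 reached 1.5, against 5.76% and 5.06% of all genes, with a median log2 ratio of -0.16. Maml3, a Mastermind coactivator, read 105.3 and 45.6, a log2 ratio of -1.15 ± 0.29, and its other tested probe was measured on the control array alone. The other lower genes, named after their values were seen, were Maml2, another Mastermind coactivator, at -0.70 ± 0.21 and the acetyltransferase Kat2b at -0.62 ± 0.22. Rbpj, the DNA-binding protein on which the pathway ends, also looked up after the fact, read 11548 and 8205, with its log2 ratio at -0.44 ± 0.20 and its Z-score at -1.92, and its 2 probes gave -0.44 and -0.41. It lay between the ratio limits.

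The corepressors, which hold Notch targets silent in the absence of a signal, gave 1 ratio of at least 1.5 and 1 of at most 0.66 among 12 genes, against 5.06% and 5.76% of all genes, with a median log2 ratio of 0.14. Tle4, a Groucho-type corepressor, read 320.1 and 470.3, a log2 ratio of 0.61 ± 0.21, and its other tested probe was measured on the control array alone, so that only a lower value was open to it. Tle1, of the same family, was at 0.54 ± 0.20, and its 3 probes lay between 0.50 and 0.61. Cir1, a corepressor that binds RBPJ, read 5025 and 2611, with its log2 ratio at -0.89 ± 0.20 and its Z-score at -2.83, and its other tested probe was measured on the control array alone. The Cir1 call was lost when the log2 ratios of its probes were averaged.

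Among the genes of endocytosis and turnover, 13 of 14 were measured and 12 lay between the limits, with a median log2 ratio of -0.17. Of the 13, 1 had a ratio of at most 0.66 and 0 reached 1.5, against 5.76% and 5.06% of all genes. Fbxw7, which marks the intracellular part of Notch for degradation, was the highest at 0.41 ± 0.20, and its other probe gave 0.79. Neurl1b, a ubiquitin ligase that acts on Notch ligands and was named after its value was seen, was the only gene of the group at or under 0.66, at -0.87 ± 0.22. The other receptors and ligands had a median of -0.39 over 3 genes measured on both arrays, with Dner measured on the control array alone, and the other glycosyltransferases 0.16 over 3 genes. Of 7 further Hes, Hey and related targets, 2 were measured on both arrays, with log2 ratios of -0.08 and -0.12, 4 on neither, and Hes5 only on the control array, where it read 40.3 against 9.85 in treated cells, at least 1.48-fold lower. Hes5 and Dner, both named after their values were seen, entered only through their control signals, so they had to be lower, and both lay in the later rows (rows 356 and 375).

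**Figure D4:**
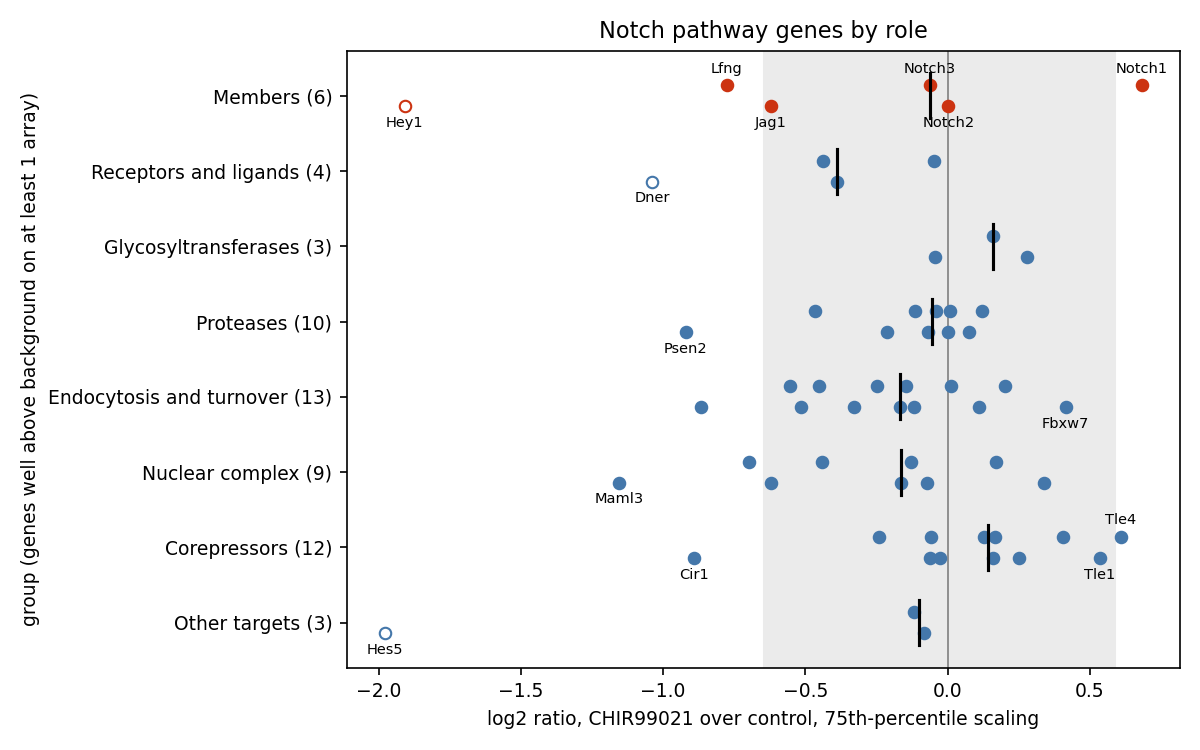
Log2 ratio of CHIR99021 over control for the Notch genes described here (red) and the other pathway genes by role (blue), with the number measured on at least 1 array in brackets. Each point is the brightest measured probe of a gene, hollow points cleared the background of the control array alone, black bars are medians of genes measured on both arrays, and the grey band is the 5th to 95th percentile of all genes. Lfng, Maml3, Psen2 and Cir1 are among the genes left of the band, and Notch1 and Tle4 lie right of it.

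The label of the cells and of the treatment was set against marker genes. Of 10 genes listed for odontogenic and other epithelium, 4 were well above background on both arrays, Krt14, Trp63 and Dlx2 among them, Krt5 and Krt18 on 1, and Krt8, Krt19, Cdh1 and Epcam on neither. All 10 genes listed for dental mesenchyme and fibroblasts were well above background on both arrays, Col1a1, Col1a2 and Vim among them. Of these markers, Twist1 and Msx1 had ratios of 1.55 and 1.54 and Dlx2 of 0.637, and Krt5, measured on the treated array alone (row 379), was at least 7.24-fold higher, a direction set by the filter. The part of such marker changes in the Notch ratios was not tested. The markers thus go against a plain epithelial identity, and the cells are called here by their line. Of 6 endothelial genes, 1 was measured, on the control array only, and of 3 blood genes Ptprc and Cd68 were measured on both. In bulk RNA, fewer cells of a type and less RNA per cell cannot be told apart. The β-catenin targets Lef1 and Axin2 were higher with CHIR99021, Lef1 by 1.58 on the log2 scale (Z-score 4.05), and Axin2, measured on the treated array alone, by at least 1.66-fold. Axin2 entered only through its treated signal, so it had to be higher, and its Z-score was 0.91. Both spots lay in the later rows (row 294 for Lef1 and row 312 for Axin2).

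Repeat spots show how precise a ratio is within an array. Over 220 probes printed 10 times each whose spots all cleared the background, the median SD of the log2 ratio between spots was 0.03. These probes were bright, with a median control signal of 69117, and only 1 had a control signal between 200 and 500, where Notch1, Jag1 and the brighter Lfng probe lie. Its SD was 0.09. The probes of the Notch genes were printed once each, so this spread was not measured for them.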

How the data were processed

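RNA was labelled with the dye Cy3 and read on Agilent arrays, and the paper names a company that produced the expression profile. Spots were quantified with Feature Extraction, given as version 10.7.1.1 in the file headers and as 9.5.1.1 in the submitters' processing notes. The headers name a mouse design with mm9 positions, whereas the study's methods name a human array. The deposited processed signal is a background-subtracted intensity that was not normalized across arrays. A second deposited table holds normalized intensity values and served as an alternative, and the paper does not name its normalization.

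Groups came from the sample labels. Control spots and outlier-marked spots were left out. The log2 intensity, less the log2 of the array's 75th percentile, was averaged over the spots of a probe (Python 3.11.15, with numpy 2.4.6, pandas 2.3.3). The ratio and Z-score criteria were adapted from the study's methods, which print the limit on the Z-score of lower genes without a minus sign. It was read as negative here, a mirrored rule was added for higher genes, and counts by the ratio alone are given too. They were applied to 28066 probes that cleared the background of 1 array or both, and the probe with the highest mean signal stood for each of 18837 genes. No statistical test between the conditions was run, because there was 1 array per condition, and that number limits the precision. The code that makes the calls was tested on simulated data. Every simulated probe was set well above background on both arrays, so signals measured on 1 array only were not covered. An at-least fold set a dim signal at the lowest signal well above background.

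Named genes were every member, and other pathway genes that met both criteria or had 1 of the 3 highest or 3 lowest log2 ratios on both arrays. A few others are named in the text as chosen after their values were seen. Members, pathway lists, marker lists and alternatives were chosen with earlier results of these data known. Alternatives were quantile, median and no scaling, a percentile over probes measured on both arrays, normexp with an offset of 50 (limma 3.58.1, R 4.3.3), the authors' table, filters on dim and uneven spots, the earlier rows, means over probes and other call rules. The authors' table and quantile normalization gave nearly equal log2 ratios (-1.8755 and -1.8753 for Hey1), so they count as 1 check. Figures were drawn with matplotlib 3.10.9.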

Additional observations from a re-analysis of the deposited data

How the results depend on the processing

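No paired analysis was possible because the control and CHIR99021 have 1 array apiece. Over the scalings and normexp, the ratio ran from 1.4975 to 1.64 for Notch1, from 0.964 to 1.02 for Notch2, from 0.922 to 0.979 for Notch3, from 0.627 to 0.706 for Jag1 and from 0.563 to 0.647 for the brighter Lfng probe. The filters and the choice of rows leave a probe's own ratio as it is.

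Counts of members that met the criteria were 0 higher and 0 lower, with 1 higher (Notch1) and 3 lower (Jag1, Lfng and Hey1) by the ratio alone, 1 higher (Notch1) and 2 lower (Lfng and Hey1) with the Z-score from the median and median absolute deviation (4.73% and 5.36% of all genes), and 1 lower (Hey1) without uneven spots (2.87% of all genes). The direction of Hey1 is set by the filter in each. The median log2 ratio of the 6 members measured on at least 1 array was -0.34, with Hey1, which had to be lower, among them. It was -0.31 with median scaling, -0.39 with no scaling, -0.39 with the percentile over probes measured on both arrays, -0.29 with normexp, -0.062 over members measured on both arrays, -0.28 over all 10 genes with no filter (which takes signals below background at face value for 4 of them, so nothing is read from it), and 0.34 in the earlier rows, which hold only Notch1 and Notch2.

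For the other pathway genes, 0 higher and 1 lower became 1 higher and 8 lower by the ratio alone, against 8.05% and 9.67% of all genes. Hes5 and Dner, which had to be lower, were among the 8. The median-based Z-score gave 0 higher and 5 lower, against 4.73% and 5.36% of all genes. Without uneven spots 1 was higher and 3 were lower, against 2.05% and 2.87% of all genes. In the earlier rows 1 was higher (Fbxw7) and 0 lower. No share over all genes was counted there or for the settings named next. Lower genes were 2 with quantile normalization, 2 with the authors' table, 2 with normexp and 0 with means over probes. Their median log2 ratio of -0.08 was -0.12 with quantile normalization and the authors' table, -0.046 with median scaling, -0.13 with no scaling and with the percentile over probes measured on both arrays, and -0.11 in the earlier rows and with means over probes. The scalings moved the median of all genes to between -0.02 and 0.06. The cause of these shifts was not tested. Dim signals limit Hey1, Hes1, Jag2, Dll1 and Heyl.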
